A study of Mus musculus with 93 samples.

Results

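The 16 libraries described here are 8 repeat libraries and the first libraries of the same 8 cells, out of 93 single-cell RNA sequencing libraries of 85 cells. They were chosen by name: in the authors' gene table a repeat carries the name of its cell with a suffix, and the labels call it a technical replicate of that cell. The labels do not say whether a repeat came from a new amplification, from the same cDNA or from a new sequencing run. All cells were picked by hand from dissociated olfactory epithelium of C57BL/6 mice, for which the labels name no transgene, treatment or age, and their oligo(dT)-primed cDNA was amplified by PCR. The repeat libraries, and with them the first libraries, cover 3 Early Immature Neuron cells (D187, D200 and D244), 3 Late Immature Neuron cells (D230, D233 and D250) and 2 Mature Neuron cells (D243 and D251). No Progenitor or Precursor cell had a repeat. No label names an animal, so no p-value was computed, and each SD is the spread over 8 cells. Values are FPKM, the fragments per kilobase of transcript scaled to the mapped fragments of the library, and a gene counted as detected at an FPKM of at least 1.

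Olfactory sensory neurons detect odours through odorant receptors, G protein-coupled receptors named Olfr in the mouse. A mature neuron is known for expressing 1 allele of 1 receptor gene out of a very large family, at a high level, while its immature forerunners can hold RNA of several. In single-cell sequencing the RNA of 1 cell is copied into cDNA and amplified many times before it is read, and a transcript that is missed at the first copying step cannot be read later. A pair of libraries from the same cell shows which genes, and which receptors, are read again.

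Many genes detected in a library were not detected in the other library of the same cell. The repeat libraries had 4102 ± 1177 detected genes and the first libraries 4498 ± 978 (SD, n = 8 cells each). Of the genes detected in a repeat library, 60.4 ± 5.2% (49.7 to 67.7%) were also detected in the first library, and of those detected in a first library, 54.6 ± 7.5% (44.9 to 68.5%) were also detected in the repeat. In all, 48750 gene and cell values were detected in at least 1 library of a pair, and 41.1% of them were detected in both.

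The levels of genes detected in both libraries often differed. Of the genes detected in both libraries of a cell, 36.5 ± 5.4% were within 2-fold of each other, and the median absolute log2 difference was 1.45 ± 0.29. Differences are on the log2(FPKM + 1) scale, repeat minus first, which understates the change of low genes. The exceptions are the share within 2-fold and the medians by FPKM level and by transcript length, which are ratios without the added 1. Of the genes detected in either library, the share past 4-fold in either direction was 67% in D187, 61.9% in D200, 54% in D230, 60.4% in D233, 58.8% in D243, 43.3% in D244, 65.1% in D250 and 62.5% in D251. D244 had the lowest of these shares, and the other 7 cells lay between 54 and 67%.

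The rank order of genes depended on which genes were counted. Across the genes detected in either library, Spearman's rho between the libraries of a cell was 0.02 ± 0.09, and it was -0.01 on average without D244, whose value was 0.24. Across the genes detected in both it was 0.42 ± 0.08, and across all 32640 genes of the table, most of them at or near 0, it was 0.64 ± 0.04. These are correlations across genes of 1 pair, which share a cell and are not independent replicates.

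A repeat library was more like the first library of its own cell than like the typical first library of another cell, but for 5 of 8 repeats at least 1 other cell came closer. Over the 16855 genes detected in any library of the series, Pearson's r of log2(FPKM + 1) between a repeat and the first library of its cell was 0.53 ± 0.05 (0.49 to 0.65), and the median r with the first libraries of the other 84 cells was 0.44 ± 0.03 (SD, n = 8 repeats). The own first library ranked first among 85 first libraries for D187, D200 and D244, second for D230 and D243, ninth for D251, 12th for D233 and 14th for D250. Over the genes detected in either of the 2 libraries compared, only the repeat of D244 had its own first library at rank 1. The own library of D250 stood at rank 27. For every other repeat the closest first library was that of D244. By rank the odorant receptors set the cells apart more clearly. Over the 221 Olfr genes detected in any library, the own first library ranked first for 7 of 8 repeats and second for D187. For all of those 7 the closest other first library was the same, that of D347. The gap to it was narrowest in D243 (r 0.609 own, 0.575 D347) and widest in D230 (0.763 and 0.460).

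**Figure D1:**
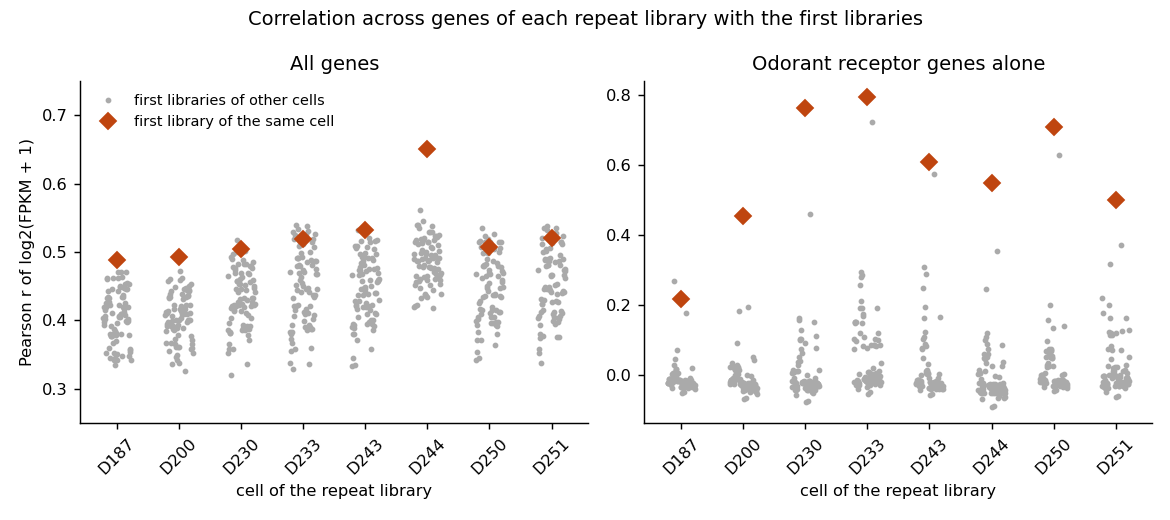
Pearson's r across genes of log2(FPKM + 1), vertical axis, between each repeat library (horizontal axis, by cell) and the first library of the same cell (diamonds) or of other cells (grey points), over all detected genes on the left and over Olfr genes on the right. With all genes only D244 stands well above its grey points (0.65 against at most 0.56), while with Olfr genes 7 of 8 diamonds lie above every grey point.

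The excess was small for detection. The share of the genes of a repeat library that were detected in the first library of the same cell exceeded the mean share in the first libraries of the other 7 cells by 4.1 ± 9.7 percentage points, and 7 of 8 cells lay above 0. For the genes of a first library, the share found in the own repeat exceeded the mean share in the repeats of the other 7 cells by 3.6 ± 11.4 points, and 5 of 8 cells lay above 0. D244 was highest in both directions (21.8 and 26.6 points), D250 was lowest for the genes of its repeat (-13.5 points) and D187 for the genes of its first library (-9.31 points). For most cells the excess was thus smaller than its spread over cells.

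The libraries differed in depth and in the part that mitochondrial genes took. By the step between low FPKM values of 2282 genes with 1 exon, 1 FPKM in 1 kb of transcript stood for 0.996 to 5.89 fragments in the repeats and 1.49 to 9.05 in the first libraries, and the ratio within a cell was 0.65 to 1.28. Mitochondrial genes held 45.6 to 91.3% of the FPKM sum of a repeat and 35.8 to 92% of that of a first library. In every library but the repeat of D251, most of this was on mitochondrial transfer RNA genes, at 31.1 to 75.9% in the repeats and 27 to 83.7% in the first libraries, which were higher in the repeats of D187, D200, D230 and D233. Mitochondrial protein-coding genes held 5.46 to 39.8% in the repeats and 8.09 to 28.2% in the first libraries and were higher in the repeats of the other 4 cells. The median ratio over genes at an FPKM of 10 or over in both libraries was 1.22 on average (repeat over first, 0.91 to 1.54), a log2 shift of 0.26, against which the differences below can be read.

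Omp and Stmn1 set D187 and D200 apart in both libraries, but did not separate the labelled stages of the other cells. Omp, the olfactory marker protein of mature neurons, was at 15.1 in the repeat and 8.8 in the first library of D187, and at 20.6 and 129 in D200. It was at 824 in the repeat and 648 in the first library of D244, and between 2614 and 12284 in the repeats and between 3681 and 7529 in the first libraries of the other 5 cells. The third Early Immature Neuron cell, D244, thus held it at an intermediate level, and the Late Immature Neuron cells D230 and D233 had more in the repeat (12284 and 9459) than the Mature Neuron cells D243 and D251 (5246 and 6594). Stmn1, a microtubule-destabilising protein of growing neurons, was highest in D187 (2982 in the repeat, 2306 in the first library) and D200 (1137 and 2461). In the Mature Neuron cell D243 it was at 588 in the repeat and 129 in the first library, and in the Early Immature Neuron cell D244 at 592 and 670.

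Some cells labelled as neurons held genes of other cell types in both libraries. Sustentacular cells are the supporting cells of the epithelium, and the summed FPKM of 15 of their genes was 6266 in the repeat and 5668 in the first library of D244, 7876 and 5120 in D230, and 1582 and 1544 in D251. In D187 it was 6.16 in the repeat and 0.96 in the first library. All 15 genes were detected in both libraries of D244. That cell also held Ascl3, a transcription factor of microvillous and gland cells, at 244.4 in the repeat and 274.5 in the first library, and the matrix gene Dcn, made by stromal cells, at 193.3 and 178.6. Dcn was the only 1 of 11 stromal and endothelial genes detected in both libraries of any cell, and Col1a1, Lum and Pdgfrb were at 0 in both of D244. Of the list of Ascl3, Aqp5 (12.6 and 43.3) and Cftr (2.16 and 4.37) were in both libraries of D244, whereas Sox9, Sox10 and Ltf were at 0. D244 was also the cell whose libraries were most alike. Its libraries had the most detected genes as well, 6491 in the repeat and 6414 in the first library. The other cells had 2847 to 5082 in the repeats and 3014 to 5033 in the first libraries. The parts of the number of genes and of genes of other cell types in that likeness were not tested.

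The share of genes that repeated went up with the FPKM level, in both directions. Of genes at an FPKM of 1 to 3 in a repeat library, 49.9 ± 7.2% were detected in the first library of the cell, and of those at 1 to 3 in a first library, 41.6 ± 6.7% were detected in the repeat. At 30 to 100 the shares were 60 ± 9.3% for genes of the repeats and 56.1 ± 13.3% for genes of the first libraries. At 100 to 1000 they were 74.4 ± 9.2% and 74.4 ± 10.6%, and at 1000 and over 87.9 ± 5.2% and 77.8 ± 8.4%. The top level mixes gene types: 314 of its 621 values in the repeats and 231 of 608 in the first libraries were protein-coding genes. This class leaves out ribosomal protein, mitochondrial and Olfr genes. For it the shares at 1000 and over were 97.4 ± 3.5% and 97 ± 2.1%. The step between 1 to 3 and 100 to 1000 was thus larger than the spread over cells, whereas the shares at levels between 3 and 100 differed from each other by less than that spread.

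Nearly the same course was seen between different cells. Of genes at 100 to 1000 in a repeat, 71.1 ± 6% were detected in a first library of the other 7 cells, and of those at that level in a first library, 71.3 ± 5.8% in a repeat of the other 7. At 10 to 30 the own cell gave 56.7 ± 8.3% and the other cells 51.6 ± 4.2% for genes of the repeats, and 49.5 ± 10.8% and 45.2 ± 2.8% for genes of the first libraries. The differences were smaller than the spread of the own-cell shares at each level, but not always than that of the other-cell shares. At 30 to 100 in a repeat the own cell gave 60 ± 9.3% and the other cells 55 ± 2.4%. The spread of the differences within each cell was not computed by level. D244 stood apart, with 94.7% of the genes at 100 to 1000 in its repeat detected in its first library, and 96.7% of those in its first library detected in its repeat.

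**Figure D2:**
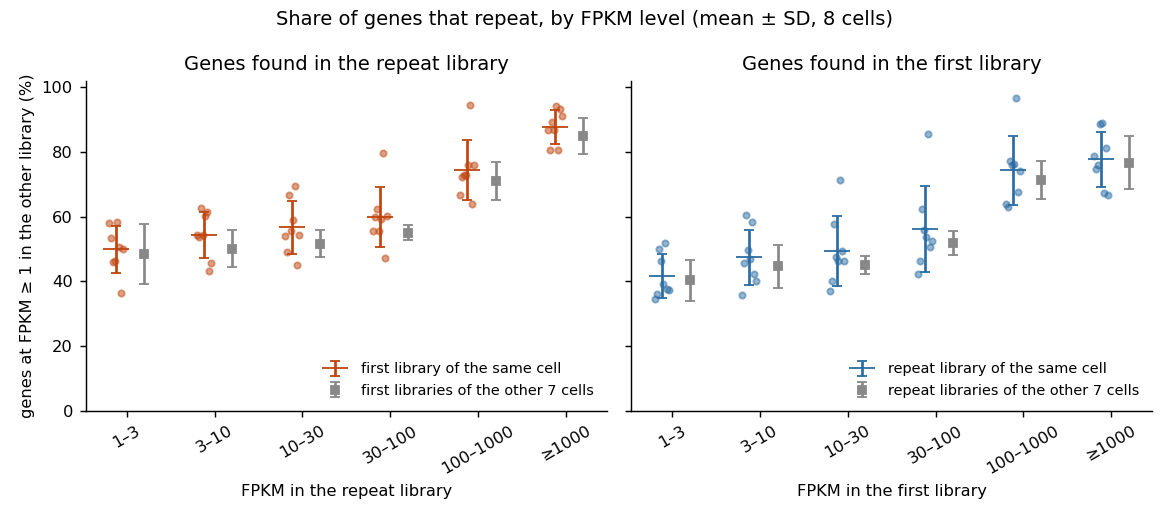
Share of genes detected in the other library (vertical axis, %), by the FPKM level in the repeat library on the left and in the first library on the right. Coloured points are the 8 cells with their mean ± SD, and grey squares are the mean ± SD over cells of the share in the libraries of the other 7 cells. The shares go up with level, and the grey squares lie a few points below the coloured means.

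A protein-coding gene that was high in a library was more often read at a lower level in the other library than missing from it. Among protein-coding genes at 100 to 1000 in a repeat library, 11.2 ± 6.1% were at exactly 0 in the first library, 14.9 ± 7.2% were above 0 and under 1, 13.5 ± 6% at 1 to 10, 24 ± 5.9% at 10 to 100, and 36.3 ± 8.5% were again at 100 or over. Among those at 100 to 1000 in a first library, 11.2 ± 4.4% were at 0 in the repeat, 15.1 ± 7.5% were above 0 and under 1, 14.6 ± 7.5% at 1 to 10, 17.8 ± 4.8% at 10 to 100, and 41.4 ± 9.3% were at 100 or over. At 1000 and over, 92.8 ± 11.8% of the protein-coding genes of the repeats and 92.2 ± 5.5% of those of the first libraries were at 100 or over in the other library. Losses at high level thus occurred in both directions.

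Genes read by many fragments were lost as well. For 1-exon genes of 800 to 4000 bp, FPKM could be turned into whole fragments, which fitted for 97 to 100% of low values within 0.1 fragment. Of genes read by 1 fragment in a repeat, 40.9 ± 11% had at least 1 fragment in the first library, and of those read by 1 fragment in a first library, 35.2 ± 11.1% had at least 1 in the repeat. Of genes read by more than 100 fragments, 84.3 ± 5.1% in the repeats and 80.8 ± 8.7% in the first libraries had at least 1 fragment in the other library. That left 54 values of the repeats and 77 of the first libraries that had over 100 fragments in 1 library and 0 in the other. Pnma1, a paraneoplastic antigen gene, had 2931 fragments (FPKM 233.4) in the repeat of D187 and 0 in its first library, where 3 fragments would stand for an FPKM of 0.16. Asprv1, a protease gene, had 1636 fragments (FPKM 140) in the first library of D187 and 0 in the repeat. Fragments are PCR copies and not independent molecules, so such floors cover counting error only.

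Named genes that were high in 1 library and under 1 in the other came from many functions. In D230, Ctps2, a CTP synthase, was at 2068 in the repeat and 0 in the first library, and Ndufa3, a subunit of respiratory complex I, was at 0 in the repeat and 1099 in the first library. In D233, Hprt, the purine salvage enzyme often used as a control gene, was at 1044 in the repeat and 0 in the first library. Psma1, a proteasome subunit detected in 6 repeats and all 8 first libraries, was at 0 in the repeat and 1021 in the first library of D200. In D243, Rab3b, a small GTPase of synaptic vesicles, was at 1258 in the repeat and 0 in the first library. These genes were the highest of their kind in their cell and direction and so show the extreme of the losses, not their usual size.

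Transcripts under 1 kb repeated more often than longer ones at the same FPKM. Among protein-coding genes at 10 to 100 in a repeat, 75.4 ± 8.5% of those under 1 kb and 57.2 ± 8.7% of those over 4 kb were detected in the first library. For the genes of the first libraries the shares in the repeat were 70.5 ± 7.7% under 1 kb and 51.4 ± 11.9% over 4 kb. Those of 2 to 4 kb were no higher than the longest, at 55 ± 8.3% for genes of the repeats and 50.5 ± 12.5% for those of the first libraries. In the first libraries of the other 7 cells the shares for genes of the repeats were 73.2 ± 4.2% under 1 kb and 50.7 ± 2.4% over 4 kb. The difference between these classes was thus as large between cells as within a cell. At 100 and over the difference was smaller: 85.6 ± 8.4% under 1 kb and 74.7 ± 10.8% over 4 kb for genes of the repeats. For those of the first libraries the shares were 82.5 ± 9.2% and 79.5 ± 12.4%. Genes of 2 to 4 kb stood at 72.2 ± 11.5% and 71.8 ± 12%, so the shares did not fall steadily with length.

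The difference by length rested on how a repeated gene was defined. A long transcript gives more fragments at the same FPKM, so genes were also grouped by recovered fragments. Among genes with 100 to 300 fragments in a repeat, 87.9 ± 8.9% of those of 0.4 to 1 kb and 81.1 ± 7.7% of those over 4 kb had at least 1 fragment in the first library. For the first libraries the shares with at least 1 fragment in the repeat were 85.1 ± 7.5% and 79.3 ± 7%. The difference between the shortest and the longest class, for genes of the first libraries, was thus 5.83 points where 1 fragment was asked of the repeat. In the same fragment classes it was 33.4 points where an FPKM of 1 was asked of the repeat, and it was 19.1 points with classes and detection both by FPKM. The levels themselves differed by about the same amount in all classes. The median absolute log2 ratio, without the added 1, was 1.54 ± 0.34 under 1 kb, 1.79 ± 0.32 at 1 to 2 kb, 1.63 ± 0.37 at 2 to 4 kb and 1.51 ± 0.32 over 4 kb. Within a level the classes differed more. For genes at 10 to 100 in a first library, the median was 1.97 ± 0.46 under 1 kb and 2.27 ± 0.53 at 1 to 2 kb. It was 1.70 ± 0.51 at 2 to 4 kb and 1.34 ± 0.38 over 4 kb. For genes at that level in a repeat the medians were 1.82 ± 0.55, 1.92 ± 0.44, 1.47 ± 0.35 and 1.25 ± 0.18. These medians are not on the scale of the median difference given above for all genes.

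Gene types differed widely. Ribosomal protein genes were detected in both libraries for 98.2% of the 652 gene and cell values detected in either, mitochondrial protein-coding genes for 98% of 99 and mitochondrial ribosomal RNA for 100% of 16. Protein-coding genes stood at 41.2% of 44827 values, close to the 41.1% of all genes. Pseudogenes reached 51% of 151 values, whereas processed transcripts (28.7% of 534), lincRNA (27.7% of 961) and antisense genes (26.8% of 845) lay lower. Reads of an antisense gene and its partner cannot be told apart where strand was not used, and a pseudogene can share reads with its parent gene. Olfr genes stood at 19%, with 34 values in both libraries, 76 in the repeat alone and 69 in the first library alone, and the small RNA types at 12.5% (snRNA, 32 values), 8.43% (misc RNA, 83), 6.74% (miRNA, 193) and 0 of 40 (snoRNA).

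**Figure D3:**
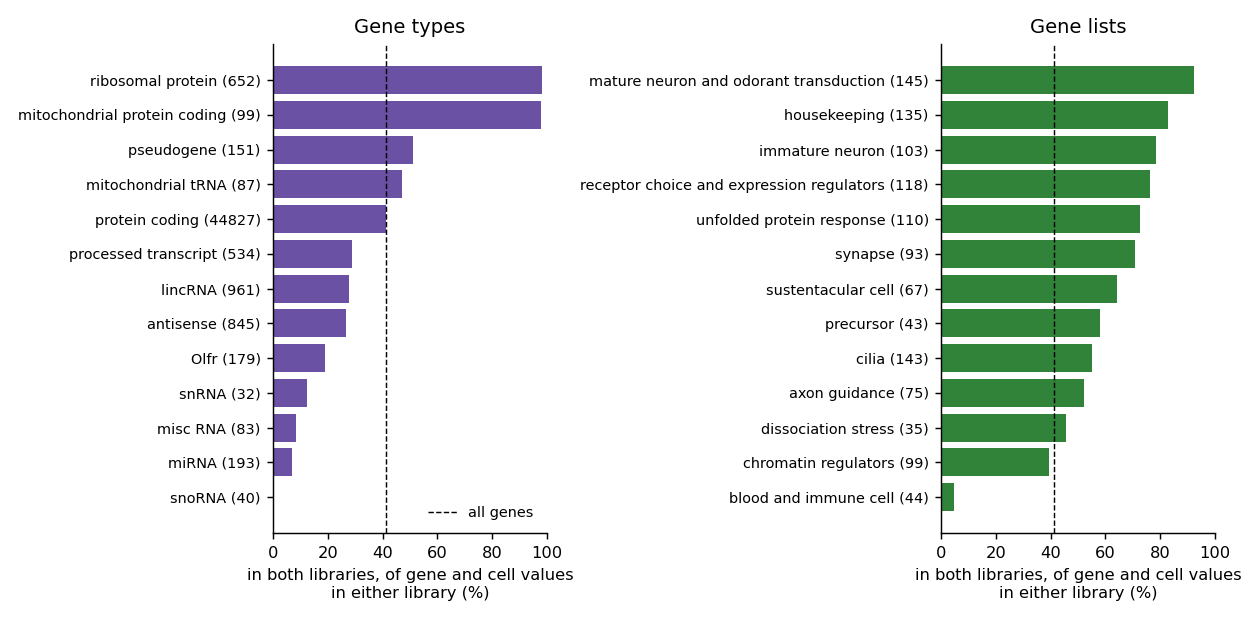
Share of gene and cell values detected in both libraries among those detected in either (horizontal axis, %, pooled over 8 cells), for gene types on the left and gene lists on the right, with the number of values in brackets. The dashed line marks all genes (41.1%). Ribosomal protein and mitochondrial protein-coding genes lie near 98%, small RNA types and blood genes near 0.

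At a high FPKM lincRNA came close to protein-coding genes. Of lincRNA at 100 and over, 66.7 ± 17.3% of those of the repeats were detected in the first library and 75.7 ± 16.4% of those of the first libraries in the repeat. For protein-coding genes at that level the shares were 74.8 ± 9.6% and 74.6 ± 11.1%. At 1 to 10 lincRNA stood at 37.1 ± 10.4% and 31.9 ± 9.7%, against 53.1 ± 6.7% and 45 ± 7.9% for protein-coding genes. The lincRNA were thus below protein-coding genes at 1 to 10 by more than the spread over cells, and within that spread at 100 and over. Other long noncoding types stayed lower on average at 100 and over. Antisense genes stood at 57.9 ± 22.4% for genes of the repeats and 57.9 ± 19.2% for those of the first libraries. Processed transcripts stood at 62.9 ± 15.1% and 63.3 ± 18.1%.

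The mitochondrial messenger RNAs repeated with unequal precision. The gene mt-Co2, a subunit of cytochrome c oxidase, ranged over 10314 to 177614 in the repeats and 9444 to 130109 in the first libraries, with a median absolute log2 difference of 0.14. For mt-Co3 this was 0.17, for mt-Atp6, a subunit of ATP synthase, 0.22, and for mt-Co1 0.40. It was 0.54 for mt-Nd6, 0.55 for mt-Nd4, 0.63 for mt-Nd5 and 0.69 for mt-Nd3, subunits of complex I, which is near the median over all genes at 1000 and over (0.73 ± 0.43 for genes of the repeats and 0.60 ± 0.18 for those of the first libraries). Other subunits of complex I lay lower, with 0.30 for mt-Nd2 and 0.34 for mt-Nd1. For mt-Cytb the difference was 0.32, and for mt-Atp8, also of ATP synthase, 0.49. The order thus did not follow the complexes. The 13th such gene, mt-Nd4l, was at 0 to 4.47 in the repeats and 0 to 7.89 in the first libraries. Mitochondrial transfer RNA genes, which are shorter than the sequenced fragments, stood at 47.1% of 87 values: mt-Tl1 was at 7496 or more in every repeat, and at 0 in the first library of D187 and 7135 or more in the others.

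The genes detected in all 16 libraries numbered 503, out of 12525 detected in any, and 5839 were never detected in both libraries of a cell. Of the 503, 77 were ribosomal protein genes, 12 mitochondrial protein-coding genes and 5 lincRNA genes. Tmsb4x, which encodes the actin-binding peptide thymosin beta 4, was at 4996 in the repeat and 4725 in the first library of D187, 3925 and 3578 in D200, 14171 and 10260 in D230, 7240 and 9282 in D233, 12183 and 15052 in D243, 5217 and 8862 in D244, 7920 and 13352 in D250, and 7873 and 6109 in D251. It was within 2-fold in all 8 cells, higher in the repeat of 4 and lower in that of 4, with a median absolute log2 difference of 0.36. Ptma, which encodes the nuclear protein prothymosin alpha, was higher in all 8 repeats, at 2302 to 9933 against 1691 to 7116 in the first libraries, and D187 and D200 were highest in both kinds of library.

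Small RNA genes gave the highest values that did not come back. Their median length is 91 bp for miRNA, 107 bp for snRNA and 127 bp for snoRNA genes, shorter than the 212 bp or more by which FPKM shortens a transcript here, so a few fragments can give a very high FPKM. Of small RNA gene values at 1000 and over, 64 were in repeats and 114 in first libraries, and 12 were at 1000 and over in both libraries of the cell. Mir3064, a microRNA gene, was at 21898, 11814 and 17860 in the repeats of D233, D244 and D251 and at 0 in the other 5, and at 23706, 16255 and 16713 in the first libraries of D187, D200 and D243 and at 0 in the other 5. It thus stood near the same level in 6 cells and in no cell in both libraries. Mir1894 was at 38795 in the repeat of D200 and at 0 in the other 15 libraries, whereas Mir200a was detected in both libraries of 1 cell.

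Of the 40 miRNA genes highest in these libraries, 9 had a hairpin in the RefSeq table (GRCm38.p6), and the 3 named above are shown because they mark the extremes of repetition. The mature sequences carry the seed, bases 2 to 8, in capitals, and the hairpins are given whole, so that their size can be set against the fragments. The Mir3064 hairpin lies at chr11:106782693-106782759 on the minus strand, that of Mir1894 at chr17:35917889-35917969 on the plus strand and that of Mir200a at chr4:156054896-156054985 on the minus strand.
Mir3064 hairpin: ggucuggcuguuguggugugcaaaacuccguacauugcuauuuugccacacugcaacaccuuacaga
mmu-miR-3064-5p: uCUGGCUGuuguggugugcaaa
mmu-miR-3064-3p: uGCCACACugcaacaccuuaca
Mir1894 hairpin: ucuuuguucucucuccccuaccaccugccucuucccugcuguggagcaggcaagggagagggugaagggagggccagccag
mmu-miR-1894-5p: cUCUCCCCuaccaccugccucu
mmu-miR-1894-3p: gCAAGGGAgagggugaagggag
Mir200a hairpin: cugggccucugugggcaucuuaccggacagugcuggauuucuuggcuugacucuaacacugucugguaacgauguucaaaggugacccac
mmu-miR-200a-5p: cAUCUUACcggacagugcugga
mmu-miR-200a-3p: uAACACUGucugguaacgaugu
No seed is shared among these mature sequences. Mature microRNAs carry no poly(A) tail for oligo(dT) priming, and whether these values come from longer RNAs over the hairpin was not tested.

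The odorant receptor genes are the ones the study turns on, and the highest receptor of a cell repeated in most cells. The top receptor was the same in both libraries of 5 of 8 cells. In D233 it was Olfr325 (mm10 chromosome 11, 58581837 to 58582336), at 13725 in the repeat and 10652 in the first library, and in D250 Olfr730 (chromosome 14, 50183375 to 50185422), at 4879 and 3005. In D243 it was Olfr728 (chromosome 14, 50139177 to 50139309), at 2111 in the repeat and 8831 in the first library, in D251 Olfr1281 (chromosome 2, 111329211 to 111331617), at 994.6 and 1355, and in D244 Olfr741 (chromosome 14, 50486546 to 50487058), at 219.3 and 344.1. In D233, D243, D250 and D251 this receptor held 75.1 to 99.3% of the Olfr FPKM of the repeat and 88.1 to 96.6% of that of the first library. These shares rest on the highest entry of the receptor in the gene table. With the entry that the authors' deposited table lists for it, they were 86.1% in the repeat and 54.8% in the first library of D243, 86.7 and 57% in D250, 88.7 and 87.8% in D233, and 65.3 and 79.9% in D251. The highest entry of Olfr728 is 133 bp long, under the 212 bp or more by which FPKM shortens a transcript here. A few fragments can thus give it a very high FPKM, and its listed entry was at 701 in the repeat and 372 in the first library. D243 and D251 are the 2 Mature Neuron cells, and D233 and D250 are 2 of the 3 Late Immature Neuron cells.

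In the other 3 cells the order of the receptors changed. In D230, Olfr810 led the repeat at 1440 and was second in the first library at 782, where Olfr60 led at 2152 with 1232 in the repeat, so both receptors were high in both libraries. In D200, Olfr570 led the repeat at 850 and was second in the first library at 305, behind Olfr610 at 320, which was at 0 in the repeat. In D187, Olfr917 led the repeat at 314 and was at 0 in the first library, and Olfr876 led the first library at 110 and was at 0 in the repeat. D187 and D200 are the 2 cells with the least Omp.

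In D187 nearly all receptors changed. Its repeat held Olfr917 at 314, Olfr1157 at 187.4, Olfr875 at 157 and Olfr877 at 95.3, and its first library held Olfr876 at 110, Olfr877 at 75.5 and Olfr231 at 44.6. Olfr877 was the only one of them in both. Olfr875, Olfr876 and Olfr877 lie on chromosome 9 between 37772637 and 37857369. Among 24 receptors compared, Olfr875 and Olfr876 shared 152 stretches of 50 bases (7.62% of those of Olfr875). The sequence compared held 4504 such stretches for Olfr876, whose entry is 586 bp long, so the shared ones may lie outside it. Whether reads could be assigned to either gene was not tested.

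In every cell at least 1 receptor at an FPKM of 10 or over was at that level in both libraries. Over the 8 cells, 71 receptor and cell pairs reached 10 in either library. Of these, 26 were at 1 or over in both, 12 of them within 2-fold, 21 were in the repeat alone and 24 in the first library alone. At 100 and over, 13 of 18 values of the repeats were detected in the first library and 17 of 22 of the first libraries in the repeat. The highest receptor found in the repeat alone was Olfr917 of D187 at 314, and the highest found in the first library alone was Olfr1251 of D250 at 392.985. A second receptor well below the top receptor was read again in D233, where Olfr1284 was at 733 in the repeat and 517 in the first library. Olfr1251 of D250 was not, but it has no assembled transcript in the authors' annotation. Of such receptors 0 values in the repeats and 18 in the first libraries reached 10. Its absence from the repeat thus cannot be read as particular to D250.

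**Figure D4:**
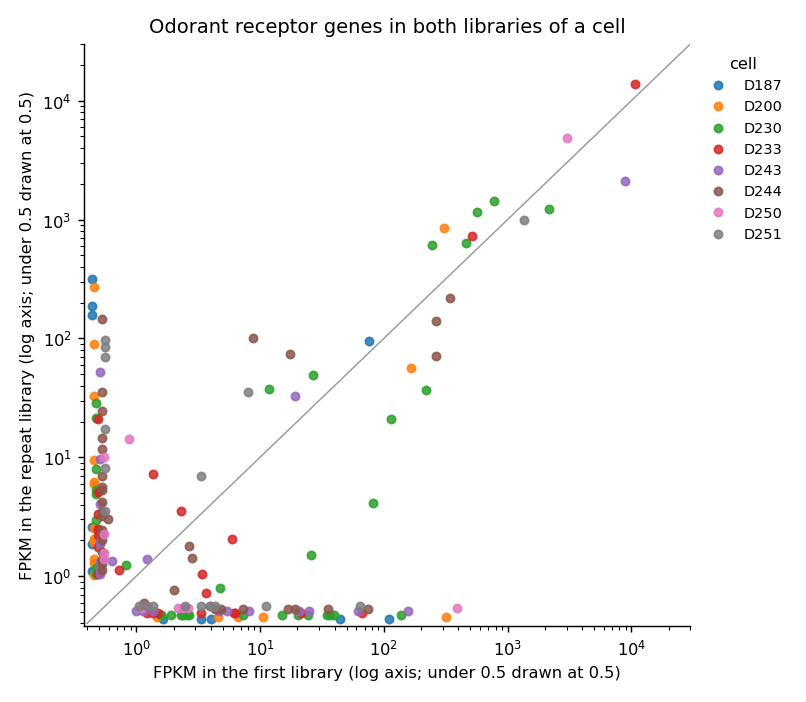
FPKM of each Olfr gene in the repeat library (vertical axis, log scale) against the first library (horizontal axis, log scale), 1 point per receptor and cell, coloured by cell, for receptors at 1 or over in either library; values under 0.5 are drawn at about 0.5 with a small spread, and the line marks equal values. Every receptor at 1000 or over in 1 library is off the axes, whereas below 100 most lie along an axis, in 1 library only.

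Low receptor values mostly did not repeat. Of 65 Olfr values at 1 to 10 in the repeats, 10 were detected in the first library, and of 55 in the first libraries, 10 were detected in the repeat. In 45 of the 65 and 45 of the 55, the receptor reached an FPKM of 100 in a library of another cell. Of the 45 in the repeats, 30 reached it in both kinds of library, 10 in first libraries only and 5 in repeats only. Of the 45 in the first libraries, 8 reached it in both kinds and 37 in first libraries only. Among values at 10 to 100 it held for 11 of 27 in the repeats and 15 of 26 in the first libraries. The share over all Olfr genes was not computed, so these counts show no excess. Of 11 receptors that led a library, 2 were detected in the repeats of all 7 other cells: Olfr325, at 13725 in the repeat of D233, was at 1.85 to 74.4 in the other 7 repeats, and Olfr730, at 4879 in that of D250, at 2.53 to 51.8. In the first libraries Olfr325 was detected in 4 of 8 and Olfr730 in 2 of 8. The 2 are the extremes: Olfr1281 was detected in 5 of the other 7 repeats, Olfr917 in 4, Olfr728 in 3, Olfr570 in 2, Olfr741 in 1, and Olfr610 and Olfr876 in 0. Leaving out the cells it led, a receptor was detected in more repeats than first libraries for 8 of the 11, in equally many for 2, and in fewer for Olfr741 (1 repeat and 2 first libraries). The 11 were picked because they led a library, so this excess in the repeats is not shown to be particular to them. Receptors with an assembled transcript in the authors' annotation were more numerous in every repeat than in its first library, as given below. The source of the low receptor values was not tested. Olfr325 and Olfr328 shared 183 stretches of 50 bases (11.3% of those of Olfr325), and Olfr328 was at 71 in the repeat and 266 in the first library of D244, where Olfr325 was at 74.4 and 17.4. In the other 7 repeats Olfr328 was at 0. Whether the stretches shared by Olfr325 and Olfr328 lie in the transcripts that were read was not tested.

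Which entry of a receptor was read mattered for repetition. The authors' annotation holds 186 assembled Olfr transcripts for 135 receptors beside the annotated genes, and the other 977 receptors have annotated entries only. All 22 receptor and cell pairs at 10 or over in both libraries belonged to receptors with an assembled entry: of their values at 10 or over, 24 of 45 in the repeats were detected in the first library and 23 of 30 in the first libraries were detected in the repeat. Of the receptors with annotated entries only, 0 values in the repeats and 18 in the first libraries reached 10, and 1 of the 18 was detected in the repeat. The highest value of such a receptor was 9.5 in the repeats and 392.985 in the first libraries.

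The receptors with annotated entries only were few in every repeat. At an FPKM of 1 they numbered 0, 3, 1, 3, 0, 2, 0 and 0 in the repeats of D187, D200, D230, D233, D243, D244, D250 and D251, against 0, 0, 10, 8, 8, 7, 5 and 10 in their first libraries. The receptors with an assembled entry numbered 7, 11, 19, 12, 12, 25, 6 and 9 in the repeats, against 6, 7, 17, 7, 5, 9, 1 and 3 in the first libraries. In the 6 cells from D230 on, every first library thus had more receptors of annotated entries than its repeat, and every repeat more of assembled ones. Over all 85 first libraries the means were 2.69 ± 3.74 receptors with annotated entries only and 4.19 ± 3.84 with an assembled one. Olfr481 of D230 (138 in the first library), Olfr378 of D243 (156) and Olfr1251 of D250 (392.985) were annotated receptors at 0 in the repeat. Why the repeats held so few of them was not tested, and it limits every count of receptors found in the first library alone.

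The entry also set the direction of a level. The authors' deposited table of receptors and cells lists 26 pairs for these cells, with values equal to those of the first libraries for 1 entry of the receptor. That entry was at 1 or over in the repeat for 14 of the 26 and at 0 for the other 12. For 4 of the 14, the library with the higher value turned round with the entry: Olfr728, Olfr730, Olfr1281 and Olfr1322. For Olfr728 of D243 the listed entry was at 701 in the repeat and, by the authors' deposited table, at 372 in the first library, whereas the highest entry, of 133 bp, was at 2111 in the repeat and 8831 in the first library. For Olfr730 of D250 the listed entry was at 239 in the repeat and at 536 in the authors' deposited table, against 4879 and 3005 for the highest entry. Which library had more of these receptors thus cannot be read from the symbol alone, while their presence in both libraries held for either entry.

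Genes of the neuron were detected in both libraries more often than genes at large, and most marker lists of other cell types less often. Of the 20 mature neuron and odorant transduction genes, 134 of 145 gene and cell values were in both libraries (92.4%), with a median absolute log2 difference of 0.85. Housekeeping genes stood at 83% of 135 values, immature neuron genes at 78.6% of 103, and regulators of receptor choice and expression at 76.3% of 118. These lists hold genes of high and low level, and the background over all genes was 41.1%. In the transduction list Omp, S100a5 and Stoml3 had a mean log2(FPKM + 1) of 9.6 or over, and Kcnk10 and Slc24a4 of 2.28 and 2.11. The share goes up with level, and no background at matched level was computed. A trait of neuron genes thus cannot be told apart from their level.

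Among the transduction genes, Cnga2, the odorant-gated channel subunit, was at 845.7 in the repeat and 695.1 in the first library of D233, 1014 and 544.8 in D243, 740.3 and 202.6 in D250, and 406.5 and 246 in D251. It was at 269 and 57.2 in D230, 127 and 81.9 in D244, and at 5 or under in both libraries of D187 and D200, so both libraries gave the same division of the cells. Gnal, the G protein subunit of odorant receptors, was at 1.6 in the repeat and 1.48 in the first library of D187 and at 63.96 or over in the other 14 libraries. Adcy3, the adenylyl cyclase of the cascade, was at 0.58 in the repeat and 39.2 in the first library of D200 and was detected in both libraries of 6 cells.

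Some regulators of receptor choice kept their differences between cells in both libraries and others did not. Lhx2, a homeodomain factor needed for receptor expression, was at 453 in the repeat and 506.5 in the first library of D187, and at 1021 and 1156 in D200. It was at 666.2 and 259.2 in D233, 243.02 and 23.9 in D230, and between 82.8 and 134 in the repeats and between 43.6 and 108 in the first libraries of the other 4 cells. Atf5, a stress-response transcription factor, and Ebf2 were detected in all 16 libraries. Rtp1, a receptor transporter, was at 1.82 in the repeat and 146 in the first library of D187, and at 193 and 2.99 in D200. Ldb1, the partner of Lhx2 at receptor enhancers, was detected in 1 of 16 libraries, the repeat of D200 at 1.76.

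The remaining lists of the cell's own machinery lay between. Genes of the unfolded protein response, which acts in receptor choice, stood at 72.7% of 110 values, synapse genes at 71% of 93, precursor genes at 58.1% of 43, cilia genes at 55.2% of 143 and axon guidance genes at 52% of 75. Efna5, an axon guidance ligand, was in both libraries of 6 cells and in the first library alone of D187 and D251. Chromatin regulators (39.4% of 99), progenitor and cell cycle genes (45.8% of 24) and dissociation stress genes (45.7% of 35) were near the background.

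Marker lists of other cell types repeated unevenly. Sustentacular genes stood at 64.2% of 67 values, led by Cbr2, which was detected in both libraries of 7 cells. Glia and ensheathing cell genes stood at 4 of 16, gland and microvillous genes at 4 of 17, horizontal basal cell genes at 1 of 4 and stromal genes at 1 of 6. Blood and immune cell genes stood at 2 of 44, with 34 in the repeat alone and 8 in the first library alone.

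Haemoglobin RNA was in every repeat and in almost no first library. Hbb-bs, a beta globin of red blood cells, was at 13.9, 11.3, 58.1, 44.2, 41.9, 74.8, 16.9 and 15 in the repeats of D187, D200, D230, D233, D243, D244, D250 and D251, against 3.15 in the first library of D244 and 0 in those of the other 7 cells. The groups did not overlap, and the repeats rested on 28 to 71 recovered fragments. Hbb-bt and Hba-a2, further globins, were detected in all 8 repeats (2.8 to 26.9 and 2.05 to 40.2) and in 0 of the 8 first libraries. Over all 85 first libraries, Hbb-bs was detected in 4, at 10.6 at most. The summed blood and immune list was 17.1 to 250.4 in the repeats and 0 to 1159 in the first libraries, where D250 held C1qb, a complement gene of macrophages, at 687 against 0.28 in its repeat.

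2 neural genes behaved alike. Fabp7, a fatty acid binding protein of ensheathing glia, was at 11.8 to 92 in all 8 repeats, and was detected in 1 of their first libraries, that of D250 at 13.8, and in 22 of all 85 first libraries, up to 5793. Gap43, a growth cone protein of immature neurons, was detected in all 8 repeats at 2.34 to 302, among them 199.3 in that of the Mature Neuron cell D243 and 269 in that of D250. Its first libraries had 47.2 in D187, 293 in D200 and at most 0.67 in the other 6. Gap43 was detected in 12 of 19 first libraries of cells numbered D168 to D205, 33 of 37 numbered D316 to D434 and 0 of 23 numbered D213 to D274, the range of those 6 cells. The ranges also differ in stage: 16 of the 23 cells in that range are Mature Neuron cells, against 0 of 19 and 4 of 37 in the other ranges. Gap43 was detected in 0 of the 7 cells of earlier stages in that range, and in 12 of 19 and 33 of 33 cells of earlier stages in the others.

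**Figure D5:**
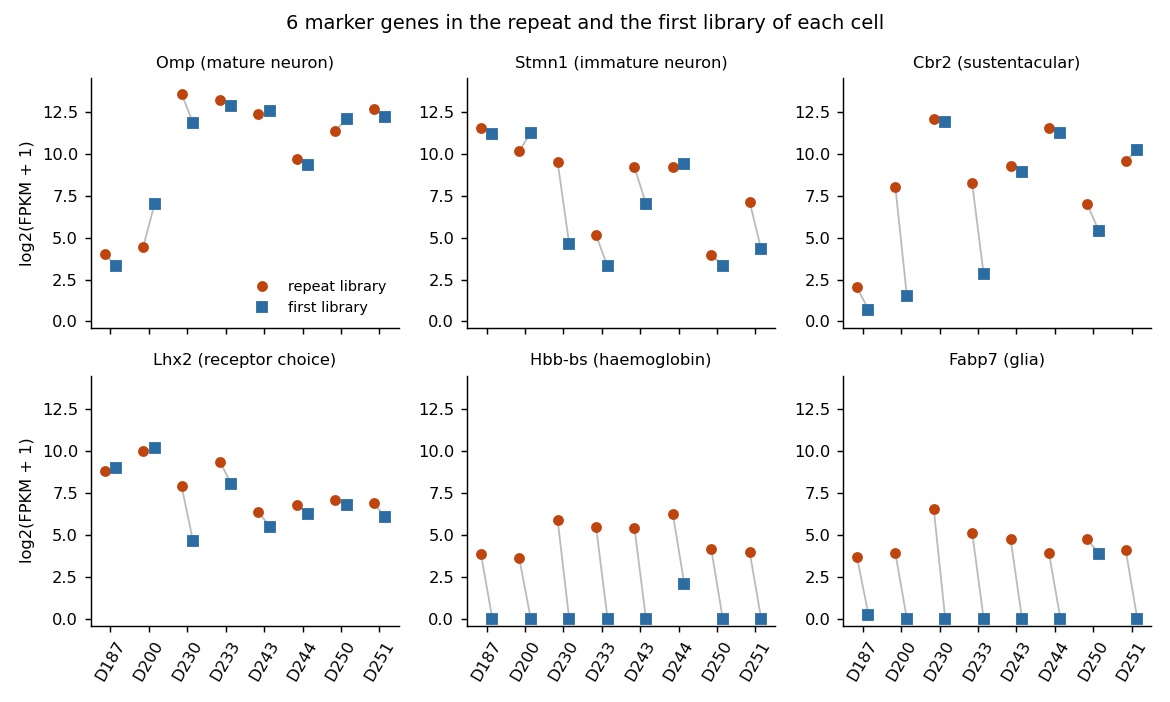
log2(FPKM + 1) of 6 genes (vertical axis) in the repeat library (circles) and the first library (squares) of each cell (horizontal axis), with a line joining the libraries of a cell. Omp, Stmn1, Cbr2 and Lhx2 keep much of their order over cells, while Hbb-bs and Fabp7 are above 3 in every repeat and at or near 0 in most first libraries.

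Few genes differed in the same direction in every cell. Of 1536 genes detected in at least 1 library of each of the 8 cells, 20 (1.3%) were higher in all 8 repeats and 7 (0.456%) were lower in all 8. With each pair scaled by its median ratio the counts were 14 and 14. The genes were picked by their direction, so their signs are a description with no test. The 20 included Hbb-bs (mean log2 difference 4.58 ± 0.87), Fabp7 (4.08 ± 1.63), Hbb-bt, Hba-a2, Olfr325 and Olfr730, together with the polyadenylation factor gene Cpsf6 and the chaperone gene Hsp90aa1. The largest differences by mean also held March2 (3.98 ± 3.38), Nsmce2 (3.86 ± 2.86) and Cct5 (3.65 ± 3.55), each higher in 7 of 8 repeats. Only Hbb-bs was more than 4-fold higher in all 8.

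In the other direction, 7 genes were lower in every repeat. Ufc1, a conjugating enzyme of the UFM1 pathway, was at 0 to 102.9 in the repeats and 3.15 to 507 in the first libraries, a mean log2 difference of -4.39 ± 3.38. Ybx1, an RNA-binding protein, was at 0 to 41.8 in the repeats and 1.81 to 397 in the first libraries (-4.24 ± 2.96), and Nsmce4a at 0 to 115.9 and 1.49 to 237 (-4.01 ± 2.95). Cops3, a subunit of the COP9 signalosome, had the lowest mean (-4.76 ± 4.32), with 0 to 63.1 in the repeats and 1.89 to 344.2 in the first libraries, and was lower in 7 of 8. The ranges of the libraries overlapped for each of these 4 genes. No gene was more than 4-fold lower in all 8 repeats.

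Detection in 1 kind of library alone was equally rare. Of the genes detected in at least 7 of 8 repeats (1274), 12 were detected in at most 1 first library, and of those detected in at least 7 of 8 first libraries (1401), 15 were detected in at most 1 repeat. 2 genes, Hbb-bt and Hba-a2, were in all 8 repeats and in 0 of the 8 first libraries, and 0 genes were in all 8 first libraries and in no repeat. Gh, which encodes the growth hormone of the pituitary, was at 237 in the repeat of D244, on 260 fragments, was detected in 1 other repeat, and was at 0 in all 85 first libraries.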

How the data were processed

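Per the submitters' processing notes, the tools were Cufflinks 2.2.1, TopHat2 2.0.14, cutadapt 1.2.1, CASAVA 1.8.2 and Trim Galore, with the mm10 genome. What settings they had, and whether libraries were scaled to each other, is not given in the sources used here. FPKM values of 32975 entries come from the authors' deposited gene table, whose 93 columns were all matched to a sample. The authors' deposited receptor table gives FPKM of 1 entry per receptor and cell. The deposited annotation gives positions on mm10 (other values) and the gene types, and holds 186 assembled Olfr transcripts.

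After 107 control entries were left out, the highest entry per symbol was used, which gave 32640 genes, of which 1112 were Olfr genes. Pairs were compared at a detection level of FPKM 1, with a pseudocount of 1 on the log2 scale and 4-fold for a called difference. The share of genes in both within 2-fold and the medians by level and by length had no pseudocount. No test was made, because a group counts as 1 sample: values are counts, medians and mean ± SD over 8 cells. Depth was recovered from the steps of low FPKM of 2282 genes with 1 exon of 800 to 4000 bp (tolerance 0.1 fragment), since the tables hold no counts.

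The cells, the 18 gene lists and the rules were chosen with earlier results of these data known. Named genes were the top receptor of each library and receptors at FPKM 10 or over, up to 4 members per list of highest mean, per cell and direction the 2 highest genes under 1 in the other library, and the 6 highest and 6 lowest mean differences. Other genes, among them the examples in all 16 libraries, the mitochondrial and microRNA genes, Pnma1, Asprv1, Ldb1 and the globins, were named after their values were seen. Alternatives were other detection levels, pseudocounts, gene sets and entries, and leaving out each cell. The pair comparison was tested on simulated data. Python 3.11.15, numpy 2.4.6, pandas 2.3.3 and matplotlib 3.10.9 were used.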

Additional observations from a re-analysis of the deposited data

Results flagged for a closer look

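Of 32 sets of 8 values tested for a single value far from the rest (gap to the nearest over the range, against Dixon's 95% critical value), 8 held one, and chance gives about 1 in 20. D244 was far above the other cells in Spearman's rho over genes detected in either library (0.244), in the share detected in the other library of genes at FPKM 30 to 100 of its repeat (79.8%) and of its first library (85.6%), and in the same share at 100 to 1000 (94.7% and 96.7%). The repeat of D230 had the highest FPKM sum (8828715), the repeat of D200 the highest share of FPKM on small RNA genes (27.3%) and the repeat of D233 the highest summed Olfr FPKM (14521). Among the control sequences of the annotation, which entered no comparison, mCherry stood at 1.55 in the repeat of D233, 4.19 in that of D243 and 0.491 in that of D250, and at 0 in the first libraries. The ERCC vector sequence stood at 0 in the repeats, and at 0.0652 in the first library of D200, 0.268 in that of D230, 0.192 in that of D233, 0.145 in that of D243 and 0.222 in that of D244.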

How the results depend on the processing

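Of 152 values under alternatives, 114 stayed within the spread over cells or within 1.5 times a count, 36 moved further and 2 turned sign. At detection levels of FPKM 0.1 and 10, 69.4% and 50.6% of the genes of a repeat were in the first library, 65.9% and 45.5% of those of a first library were in the repeat, and 29.5% and 49.7% of genes in both were within 2-fold (19.1% of genes in either). At FPKM 10 the median absolute log2 difference was 1.02. Spearman's rho was 0.19 at FPKM 0.1, -0.0617 at 10, 0.64 over all genes and 0.42 over genes in both; without D244 it was -0.0118. The difference by length, 19.1 points, was 33.4 points in bins of 100 to 300 fragments with FPKM 1 asked of the repeat and 5.83 with 1 fragment. Of Olfr values of the first libraries, 33% repeated, 45.8% at FPKM 10 and 59.1% at 100 in both, and 7.55% with annotated entries only. The own first library ranked first for 1 repeat, for 3 within its stage, for 2 within its range of names, for 3 over genes or protein-coding genes detected in any library and for 7 over Olfr genes. The gene lists stood at 63.4% in both, and at 53.6% at FPKM 10. Genes lower in every repeat numbered 7, and 14 after scaling. Leaving out 1 cell gave 59.3 to 61.9% and 52.7 to 56.0% repeated, 35.6 to 37.8% within 2-fold, 1.38 to 1.502 for the median difference, -0.0118 to 0.0315 for rho, 31.1 to 33.7 points by level, 16.7 to 21.4 by length, -13.6 to -12.4 by type, 30.3 to 34.4% of Olfr values and 61.6 to 64.9% of list values. It gave 27 to 42 genes higher and 12 to 19 lower in every repeat, because fewer cells were asked to share a direction. The causes of the other shifts were not tested. No repeat had under 0.5 times the depth of its first library, so that alternative gave no value. No paired analysis was possible because no result comes from a fitted test to which a block could be added; differences were taken within each cell.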
